A study of Mus musculus with 18 samples.

Results

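The immediate early and stress transcription factor families were followed across the arrays as 39 genes, each represented by 1 probe set, of 9636 genes that a probe set with a single annotated symbol covered. Members were chosen by symbol alone, as genes whose names start with Fos, Jun, Egr, Nr4a, Ier, Klf, Atf, Cebp, Btg or Gadd45. The probe set of highest mean stood for a gene with several, but each of the 39 members had only 1. By name they fell into 4 AP-1 genes (Fos, Fosl1, Fosl2 and Jun), 4 EGR and NR4A factors (Egr1, Egr2, Nr4a2 and Nr4a3), 3 IER proteins (Ier2, Ier3 and Ier5), 10 KLF factors (Klf1, Klf3, Klf4, Klf5, Klf6, Klf7, Klf9, Klf10, Klf13 and Klf16), 6 ATF factors (Atf2, Atf4, Atf5, Atf6, Atf6b and Atf7), 4 C/EBP factors (Cebpa, Cebpb, Cebpd and Cebpg) and 4 BTG and GADD45 growth arrest genes (Btg1, Btg2, Gadd45a and Gadd45b). The name also matched Atf7ip, Cebpzos, Gadd45gip1 and Ier3ip1, which belong to none of these families and are shown as the 4 genes matched by name only.

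The cells came from the bone marrow of Balb/c mice carrying JAK2V617F, the activated kinase of myeloproliferative neoplasms, which was introduced with GFP by retroviral transduction and transplantation. GFP+ cells are therefore called JAK2V617F+ and GFP- cells JAK2V617F-, and the JAK2V617F- cells lay in the same diseased marrow and received every agent that the JAK2V617F+ cells received. Marrow of several mice per experiment, with no statement in the labels or methods of how it was combined, was cultured for 16 h in medium with IL-3 at 50 ng/mL and SCF at 100 ng/mL, without antibody (untreated) or with a blocking antibody (BA) at 10 µg/mL against TNFR1 or TNFR2, the receptors for TNF, and Lin-Kit+ progenitors were then sorted by GFP. The 6 groups were untreated, TNFR1 BA and TNFR2 BA cells of each genotype, with 3 arrays each, from 3 experiments. Values are log2 signals, on which a difference of 1 is a doubling.

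Of the 18 arrays, untreated JAK2V617F+ replicate 3 was left out of the fits, which left 8 JAK2V617F+ and 9 JAK2V617F- arrays. Its median signal was 6.05, where the other 17 medians lay between 7.41 and 7.75. The array probe set of Kit, the receptor used to sort the cells, ranged from 3.71 to 9.95 in JAK2V617F+ and from 4.19 to 9.20 in JAK2V617F- cells, and that of Cd34, another progenitor marker, from 9.69 to 11.08 and from 7.12 to 12.04. Jak2 itself differed by 0.66 (SE 0.65, adjusted p = 0.763). The labels and methods do not say whether its probe set reads the retroviral transcript or tells the mutant from the normal transcript. The table has no detection calls and no depth, and every array shared a lowest value of 2.22, so a difference from a group near it can be too small. Precision depends on how many arrays a group has, and the median standard deviation within groups was 1.45 over all probe sets.

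Immediate early genes such as Fos, Egr1 and Ier2 are transcribed within minutes of a growth factor, cytokine or stress signal, without new protein synthesis, through factors already bound at their promoters, and their transcripts decay quickly. AP-1 dimers of Fos and Jun proteins, and the ATF and C/EBP proteins that can pair with them through the same leucine zipper fold, carry such signals on to later genes, and JNK and p38 kinases downstream of TNF receptors act on several of them. In blood progenitors some of the same families set lineage: KLF1 drives red cell genes, C/EBPα and C/EBPε granulocyte genes and KLF4 monocyte genes, while ATF4, induced when translation is slowed by stress, raises genes for amino acid supply.

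RefSeq promoter windows of GRCm38.p6 were at hand for 29 of the 39 genes. Egr1, which had the smallest p by replicate number, was not among them. The 250 bases before the start are shown for 4 members. Klf1 (chr8:84901732-84901981, + strand) and Fos (chr12:85473640-85473889, + strand) had 2 of the 3 smallest p between the genotypes. Atf4 (chr15:80254934-80255183, + strand) and Gadd45a (chr6:67037408-67037657, - strand) stood apart in 1 replicate number. Each sequence runs 5′ to 3′ along the gene. Capitals mark GATAA (the core that GATA factors bind) and CACCC (the box that KLF factors bind) in Klf1, TGACG (the core that CREB and ATF factors bind) in Fos, TGACG and GATAA in Atf4, and TTGCNNAA (the motif of C/EBP proteins) in Gadd45a, on either strand, so that GATAA can read TTATC and TGACG can read CGTCA. The marked matches do not overlap.
Klf1: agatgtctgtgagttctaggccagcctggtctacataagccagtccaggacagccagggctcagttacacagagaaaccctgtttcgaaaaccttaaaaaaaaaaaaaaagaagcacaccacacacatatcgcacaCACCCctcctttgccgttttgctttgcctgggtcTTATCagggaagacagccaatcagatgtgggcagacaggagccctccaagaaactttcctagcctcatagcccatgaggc
Fos: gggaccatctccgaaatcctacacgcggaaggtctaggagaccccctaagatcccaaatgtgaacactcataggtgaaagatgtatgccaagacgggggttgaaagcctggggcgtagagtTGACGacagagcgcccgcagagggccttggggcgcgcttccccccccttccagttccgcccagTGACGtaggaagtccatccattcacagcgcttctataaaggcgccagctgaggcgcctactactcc
Atf4: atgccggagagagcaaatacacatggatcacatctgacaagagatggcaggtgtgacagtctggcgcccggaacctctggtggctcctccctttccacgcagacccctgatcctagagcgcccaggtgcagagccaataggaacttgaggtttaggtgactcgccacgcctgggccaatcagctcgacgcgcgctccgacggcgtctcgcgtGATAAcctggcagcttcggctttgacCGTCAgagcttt
Gadd45a: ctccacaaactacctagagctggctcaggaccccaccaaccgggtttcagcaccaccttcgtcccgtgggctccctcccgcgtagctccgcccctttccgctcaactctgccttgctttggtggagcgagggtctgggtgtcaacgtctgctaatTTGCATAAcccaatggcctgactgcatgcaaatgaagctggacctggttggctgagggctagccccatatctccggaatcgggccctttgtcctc

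Matches were counted over 32851 windows of the same length. TGACG was found in 17.8% of them and in 11 of the 29 members, among them Fos, Egr2, Nr4a2, Nr4a3, Klf4, Klf9, Atf4 and Btg2. GATAA occurred in 22.6% of windows and in Klf1, Jun, Atf4 and Cebpzos, CACCC in 52% and in 18 members, and TTGCNNAA in 9.56% and in Gadd45a, Atf7ip and Cebpzos. The AP-1 site TGANTCA was present in 6.75% of windows and in Klf9 alone, TGATGNAA, the composite C/EBP and ATF element, in 3.45% and in no member, and the CArG box of serum response factor in 1.47% and in Egr2 alone. These are matches of letters within 250 bases, and a gene without one may hold it elsewhere.

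The levels of the members scattered widely between arrays of the same group. Within the 17 arrays 24 of the 39 genes ranged over more than 5 log2 units, as 52.7% of all genes did. Atf4 was the narrowest, between 11.54 and 13.17, followed by Atf6b, from 9.39 to 11.27. At the other end Klf1 ranged from 4.06 to 13.39, Atf6 from 3.55 to 12.38 and Gadd45b from 3.65 to 12. Fos and Fosl1 sat at the lowest value in 8 arrays each, Nr4a3 in 5, Egr2 in 3, Nr4a2 in 2 and Klf4, Klf7 and Klf9 in 1 each, and a value there has no level of its own. The map of all members shows the same scatter by array.

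**Figure D1:**
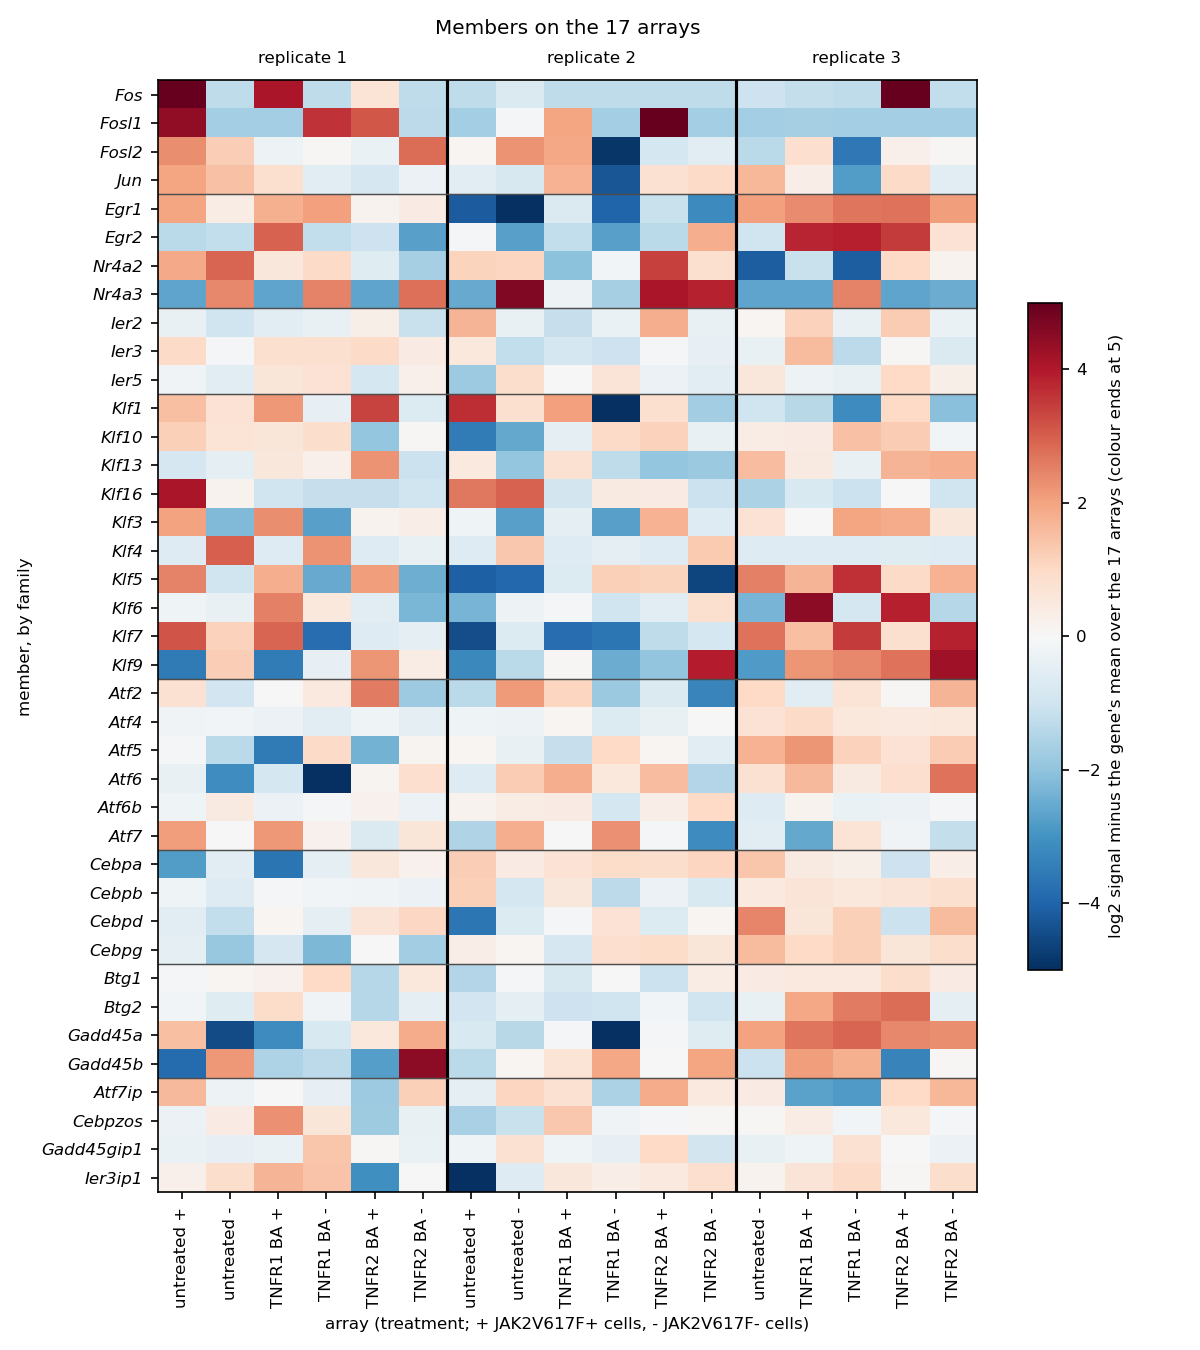
Log2 signal of each of the 39 members (rows, grouped by family) on the 17 arrays (columns, grouped by replicate number, + for JAK2V617F+ and - for JAK2V617F- cells), minus the gene's mean over the 17 arrays. Egr1 is low in all 6 arrays of replicate 2, Atf4 and Gadd45a are high in all 5 of replicate 3, and Fos is high in single JAK2V617F+ arrays.

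The genotypes were compared first, as the mean difference JAK2V617F+ minus JAK2V617F- over the 3 treatments. With limma and Benjamini-Hochberg adjustment, 0 of 39 members passed an adjusted p of 0.05, where 0.358% of the 10335 probe sets tested passed. At an unadjusted p under 0.05, 4 members were higher in JAK2V617F+ cells (Klf1, Fos, Ier3 and Klf3), against a background of 5.21%, and 4 were lower (Gadd45b, Btg1, Nr4a3 and Klf4), against 5.08%. In no member did the arrays of the genotypes separate without overlap, which 0.242% of probe sets did. The median difference of the members was 0.38 and 25 of 39 were above 0, while the median of all probe sets was 0.0001 and 50.02% were above 0. Differences of the members ran from -2.91 to 3.23 with a median standard error of 0.72.

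**Figure D2:**
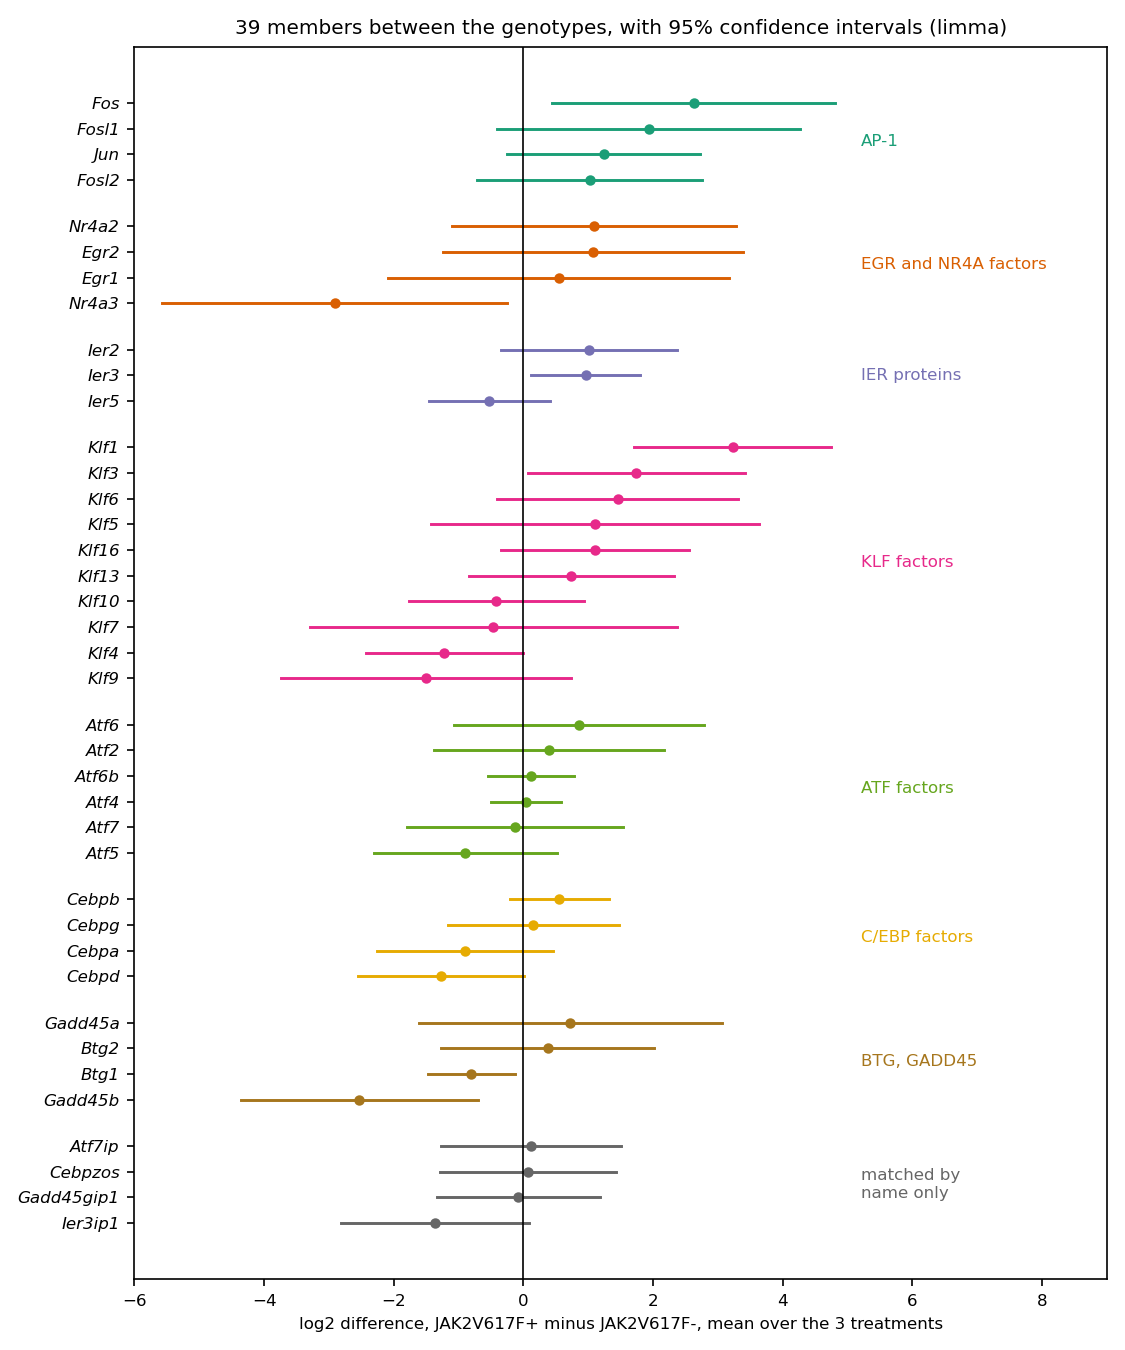
Difference in log2 signal between JAK2V617F+ and JAK2V617F- cells, mean over the 3 treatments, for the 39 members by family, with limma's 95% confidence intervals. Klf1, at 3.23, has the interval farthest from 0, and the intervals of 31 members include 0.

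Klf1, the master regulator of red cell genes, had the smallest p of the 39 genes and the 50th smallest of all probe sets. Its signals in JAK2V617F+ cells were 11.19 and 13.39 untreated, 11.89, 11.77 and 8.31 with TNFR1 BA and 13.09, 10.50 and 10.68 with TNFR2 BA, and in JAK2V617F- cells 10.42, 10.49 and 8.71, then 9.28, 4.06 and 6.55, then 9.0, 7.98 and 7.60 in the same order. The genotypes did not overlap in untreated cells or under TNFR2 BA, and overlapped under TNFR1 BA through 1 array of each. With 2 or 3 arrays a group such separation can easily arise by chance, and its share over all probe sets was not counted. Klf1 averaged 11.35 ± 1.61 (SD, n = 8) in JAK2V617F+ and 8.23 ± 2.02 (SD, n = 9) in JAK2V617F- cells, and the fitted difference was 3.23 (SE 0.72, 95% interval 1.71 to 4.74, adjusted p = 0.0639). Set side by side by treatment and replicate number, JAK2V617F+ was the higher in 8 of 8 pairs, by 0.78 to 7.71. The pairs come from 3 replicate numbers and may not be separate observations, and the labels do not say that a number marks 1 experiment.

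Whether Klf1 passed depended on the fit. With the replicate number as a block the difference was 3.06 (adjusted p = 0.0417), and with all 18 arrays 3.22 (adjusted p = 0.0475). It also passed without untreated JAK2V617F+ replicate 1 (adjusted p = 0.0406), without TNFR1 BA JAK2V617F+ replicate 3 (0.0203) or without TNFR1 BA JAK2V617F- replicate 1 (0.0166). In the other 17 of 20 fits that left out an array or a replicate number it did not pass, with adjusted p up to 0.582 without replicate 2. Nor did Klf1 pass with quantile normalization (adjusted p = 0.0692), variances without a trend (0.110), array weights (0.123) or dim probe sets removed (0.0582).

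Other red cell genes were also higher. The erythroid and mast cell lists were chosen with earlier results of these data known. Their counts are a description and no separate support for Klf1. Of 12 measured genes of the erythroid list, 3 rose in JAK2V617F+ cells at adjusted p under 0.05, where 0.358% of probe sets passed. All 12 were above 0, and the median difference was 2.28. Pklr, red cell pyruvate kinase, rose by 5.82 (SE 0.96, adjusted p = 0.00626), Ermap, a red cell surface protein, by 2.87 (SE 0.54, adjusted p = 0.0182), and Car2, a carbonic anhydrase, by 1.47 (SE 0.27, adjusted p = 0.0132). Mast cell and basophil genes moved with genotype more widely. Of 11 measured, 6 were higher at adjusted p under 0.05 and 10 were above 0, with a median difference of 2.91. Tpsb2 rose by 7.35, Tpsab1 by 8.94, Cma1 by 5.64, Cd200r3 by 5.16, Fcer1a by 2.91 and Cpa3 by 2.33. The mean signal of the 11 ranged from 10.64 to 12.17 in JAK2V617F+ and from 6.86 to 8.79 in JAK2V617F- arrays, and that of the 12 erythroid genes from 8.03 to 10.56 and from 6.34 to 7.81, with Slc4a1 averaging under 4. Of 8 monocyte, macrophage and dendritic cell genes 3 were above 0, and 1 was lower at adjusted p under 0.05, H2-Aa at -3.02 (adjusted p = 0.0352). None of 8 progenitor, 5 megakaryocyte, 6 B cell or 4 T and NK cell genes passed, with medians of 0.06, 0.87, -1.30 and -1.72. The part of cell composition in any difference of the members was not tested, and in bulk samples fewer cells of a type and less RNA per cell cannot be told apart.

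Among the other KLF factors, Klf3, a repressor that KLF1 induces in red cell precursors, measured 7.24 to 10.05 (median 8.69) on the 8 JAK2V617F+ arrays and 5.02 to 9.69 (median 7.10) on the 9 JAK2V617F- arrays, and was higher by 1.74 (SE 0.80, adjusted p = 0.466). Its arrays overlapped over most of that range. Klf4 was at or near the lowest value on every JAK2V617F+ array, with 2.25 the highest, while 6 of 9 JAK2V617F- arrays exceeded that, at 5.86 and 4.23 untreated, 5.11 and 2.43 with TNFR1 BA and 2.52 and 4.18 with TNFR2 BA. The difference of -1.22 (SE 0.57, adjusted p = 0.481) is thus set by JAK2V617F- arrays of replicates 1 and 2, since all 3 of replicate 3 measured at most 2.23. Klf5, Klf6, Klf13 and Klf16 had differences between 0.74 and 1.45, and Klf7, Klf9 and Klf10 between -1.50 and -0.42, none with an adjusted p under 0.584.

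Fos, the founding AP-1 gene, was found above 4 in 4 arrays, all JAK2V617F+. It measured 9.33 in untreated replicate 1, 7.57 in TNFR1 BA replicate 1 and 4.20 and 8.63 in TNFR2 BA replicates 1 and 3, while the other 4 JAK2V617F+ arrays were at 2.33 or less. No JAK2V617F- array exceeded 2.80. The fitted difference was 2.62 (SE 1.04, adjusted p = 0.396), and the groups overlapped at the low end. The other AP-1 genes were also higher on average, Fosl1 by 1.93, Jun by 1.24 and Fosl2 by 1.02, with adjusted p between 0.550 and 0.702. Fosl1, like Fos, was either near the lowest value or clearly above it, and its 5 arrays above 4 were 9.23, 8.35, 7.05 and 5.90 in JAK2V617F+ and 7.56 in JAK2V617F- cells.

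The orphan nuclear receptor gene Nr4a3, which restrains myeloid proliferation in mice, went the other way. It was at most 2.34 in 6 of 8 JAK2V617F+ arrays, with 4.60 and 8.94 in the others, both of replicate 2. In JAK2V617F- cells it measured 7.24, 9.49 and 2.22 untreated, 7.35, 3.18 and 7.32 with TNFR1 BA and 7.61, 8.71 and 2.36 with TNFR2 BA. The difference was -2.91 (SE 1.27, adjusted p = 0.435), and the genotypes overlapped at both ends. Its relative Nr4a2 differed by 1.09, Egr1 by 0.54 and Egr2 by 1.08, with standard errors over 1.

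Gadd45b, a stress sensor that NF-κB induces after TNF and that curbs JNK signalling, had the second smallest p. In JAK2V617F+ cells it measured 3.65 and 6.15 untreated, 5.95, 8.18 and 9.61 with TNFR1 BA and 4.77, 7.51 and 4.18 with TNFR2 BA. In JAK2V617F- cells it measured 9.68, 7.60 and 6.44, then 6.2, 9.44 and 9.30, then 12, 9.48 and 7.56. The genotypes did not overlap in untreated cells or under TNFR2 BA, which can easily arise by chance in groups this small, and overlapped almost fully under TNFR1 BA. The mean difference was -2.53 (SE 0.87, adjusted p = 0.308). JAK2V617F+ was the lower in 7 of 8 pairs of the same treatment and number, which come from 3 replicate numbers. Btg1, an antiproliferative gene abundant in resting blood cells, ranged from 10.37 to 12.72 (median 11.40) and from 11.79 to 12.84 (median 12.23), and averaged 11.43 ± 0.90 (SD, n = 8) against 12.19 ± 0.32 (SD, n = 9), a difference of -0.80 (SE 0.32, adjusted p = 0.40), and was also lower in 7 of 8 pairs. Btg2 and Gadd45a, targets of p53, were 0.38 and 0.72 higher, well inside their standard errors of 0.78 and 1.11.

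Ier3, an NF-κB target with a role in survival, was higher in JAK2V617F+ cells in 8 of 8 pairs but only by 0.03 to 2.89. These pairs too come from 3 replicate numbers. Ier3 ranged from 9.73 to 12.18 (median 11.27) and from 9.29 to 11.38 (median 10.20), and averaged 11.09 ± 0.76 (SD, n = 8) against 10.16 ± 0.72 (SD, n = 9). The difference of 0.96 (SE 0.40, adjusted p = 0.414) did not pass. Ier2 and Ier5 differed by 1.01 and -0.53, at adjusted p of 0.610 and 0.713. The ATF genes lay close to 0, from -0.90 for Atf5 to 0.86 for Atf6, and Atf4 differed by 0.04 (SE 0.25, 95% interval -0.49 to 0.58). Of the C/EBP genes, Cebpd (-1.28) and Cebpa (-0.90) were lower and Cebpb (0.55) and Cebpg (0.15) higher, with no adjusted p under 0.487. Ier3ip1, matched by name only, differed by -1.37 (adjusted p = 0.50), and Gadd45gip1, Atf7ip and Cebpzos by -0.08, 0.11 and 0.07.

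**Figure D3:**
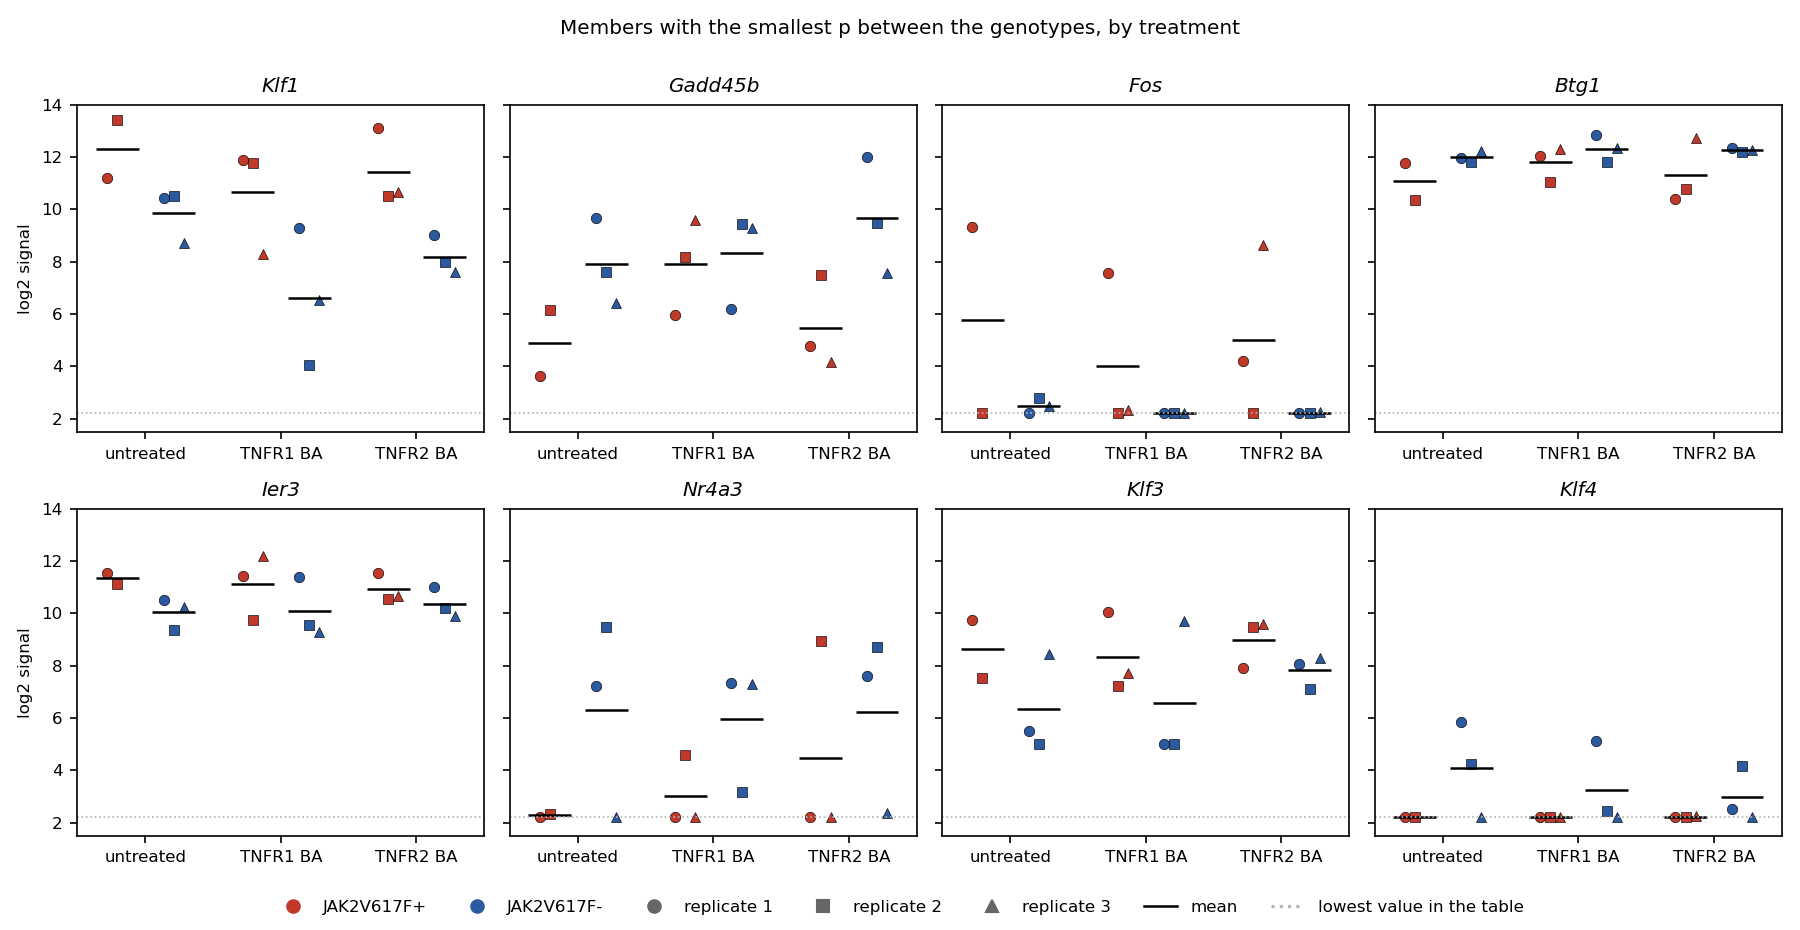
Log2 signal on every array for the 8 members with an unadjusted p under 0.05 between the genotypes, by treatment and genotype (red, JAK2V617F+; blue, JAK2V617F-), with the group mean as a line, the replicate number as the symbol and the lowest value in the table dotted. The Klf1 mean is higher in red in every treatment, and Fos exceeds 4 only in red.

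Genes around these families were measured as well. None of 26 other immediate early genes passed between the genotypes, nor any of 18 leucine zipper partners, 18 upstream kinase and serum response genes, 24 integrated stress and unfolded protein response genes, 8 p53 targets or 17 granulocyte and monocyte genes under C/EBP control, and the medians of these lists lay between -0.40 and -0.04. The nearest were Mapk8, which encodes the JNK1 kinase that phosphorylates Jun, at -3.59 (SE 0.78, adjusted p = 0.0604), and Nfkbia, the NF-κB inhibitor that NF-κB itself induces, at -1.78 (SE 0.41, adjusted p = 0.0790). Hlf differed by -3.47 (adjusted p = 0.149), Ern1, the IRE1 sensor of the unfolded protein response, by -2.68 (adjusted p = 0.156), and Batf, an AP-1 partner of Jun proteins, by 1.74 (adjusted p = 0.231). The remaining 2 genes of smallest p were Bhlhe40 (0.83) and Zfp36l1 (-1.79) among the immediate early genes, Rps6ka3 (0.86) and Mrtfa (-1.19) among the kinase and serum response genes, and Dnajb9 (-0.93) and Edem1 (-0.84) among the stress genes, and Bach2 (-1.56) came after Hlf and Batf. The 3 of smallest p were Trp53inp1 (-1.85), Pmaip1 (-0.73) and Aen (0.84) among p53 targets and Irf8 (-2.40), Camp (-2.66) and S100a9 (-0.28) among granulocyte and monocyte genes, with adjusted p of 0.414 or more for all these.

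Within each treatment the members were no nearer to a call. In untreated cells 0 of 39 passed (0.0774% of probe sets did) and 2 had an unadjusted p under 0.05 (background 7.32%): Klf16 was 2.84 higher (SE 1.28, adjusted p = 0.642) and Ier3ip1 differed by -2.75 (SE 1.28, adjusted p = 0.662). These comparisons rest on 2 untreated JAK2V617F+ arrays, in which Ier3ip1 measured 9.56 and 3.85. The untreated array that was left out had Ier3ip1 at 5.01 and Klf16 at 3.86. Without the array at 9.56 the Ier3ip1 difference was -5.61 (adjusted p = 0.0270), and without that at 3.85 it was 0.11. Cebpd differed by -2.25 (SE 1.13), Gadd45b by -3.01 (SE 1.61) and Klf1 by 2.42 (SE 1.34) in untreated cells, with adjusted p from 0.684 to 0.713.

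Under TNFR1 BA 0 of 39 passed (background 0.0871%) and 3 had an unadjusted p under 0.05 (6.21%), Klf1 at 4.03 (SE 1.2, adjusted p = 0.519), Jun at 3.49 (SE 1.17, adjusted p = 0.570) and Fosl2 at 3.63 (SE 1.37, adjusted p = 0.669). Jun measured 8.11, 9.03 and 7.63 in JAK2V617F+ and 6.77, 3.02 and 4.50 in JAK2V617F- cells. Klf6 and Atf6 followed at 2.74 (SE 1.47, adjusted p = 0.837) and 2.56 (SE 1.52, adjusted p = 0.884). Under TNFR2 BA 0 of 39 passed (0.0387%) and 2 had an unadjusted p under 0.05 (5.63%), Gadd45b at -4.20 (SE 1.44, adjusted p = 0.719) and Klf1 at 3.23 (SE 1.2, adjusted p = 0.772). Fosl1 (3.81, SE 1.85), Btg1 (-0.96, SE 0.53) and Ier2 (1.73, SE 1.08) came next, at adjusted p from 0.889 to 0.920.

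The blocking antibodies were then compared with untreated cells of the same genotype. In JAK2V617F+ cells TNFR1 BA changed 0 of 39 members by the adjusted p (0.00968% of probe sets passed), and 3 had an unadjusted p under 0.05 (6.78%). Klf16, a zinc finger repressor, was at 8.84 and 7.42 untreated and at 3.78, 3.86 and 4.0 with TNFR1 BA, a difference of -4.25 (SE 1.28, adjusted p = 0.475). The untreated JAK2V617F+ array that was left out had Klf16 at 3.86, the level of the treated arrays, Ier3ip1 at 5.01 and Klf6 at 8.85. Ier3ip1 was 3.58 higher (SE 1.28, adjusted p = 0.590) and Klf6, an early response KLF gene, 3.56 higher (SE 1.64, adjusted p = 0.721), while Cebpd and Cebpzos were 2.26 (SE 1.13, adjusted p = 0.770) and 2.28 (SE 1.2, adjusted p = 0.789) higher. The Ier3ip1 difference became 6.44 (adjusted p = 0.0160) without untreated JAK2V617F+ replicate 1 and 6.07 (adjusted p = 0.0489) without replicate 1 as a whole. The median difference of the members was 0.23, against 0.10 for all probe sets.

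With TNFR2 BA 0 of 39 members passed in JAK2V617F+ cells (0.029%) and 2 had an unadjusted p under 0.05 (5.26%). Klf16 was at 3.63, 5.17 and 4.78, a difference of -3.60 (SE 1.28, adjusted p = 0.799). The untreated arrays are shared with the TNFR1 BA comparison, so the repeat is not a separate observation. Klf9, a KLF gene that glucocorticoids induce, was at 2.22 and 2.53 untreated and at 7.98, 3.79 and 8.47 with TNFR2 BA, a difference of 4.37 (SE 1.98, adjusted p = 0.922). The untreated JAK2V617F+ array that was left out had Klf9 at 6.18 and Klf16 at 3.86. Cebpd differed by 1.69 (SE 1.13), Ier3ip1 by 1.77 (SE 1.28) and Klf6 by 2.22 (SE 1.64), at adjusted p of 0.989 or more. The members' median was 0.57, with 28 of 39 above 0, and that of all probe sets 0.06.

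In JAK2V617F- cells no probe set at all passed with either antibody (0% in each), and adjusted p of the members was 1 throughout. With TNFR1 BA 3 members had an unadjusted p under 0.05 (3.73%), all lower. Jun was at 8.75, 6.48 and 8.95 untreated and at 6.77, 3.02 and 4.50 with TNFR1 BA, a difference of -3.29 (SE 1.17), Fosl2 was at 8.53, 9.56 and 5.93 and at 7.36, 2.45 and 3.71 (-3.50, SE 1.37), and Klf1 differed by -3.24 (SE 1.2). Each overlapped with untreated cells. Atf7ip differed by -2.03 (SE 1.10) and Klf10, the TGF-β early response gene, by 1.60 (SE 1.07). With TNFR2 BA 1 member had an unadjusted p under 0.05 (2.47%), Klf9, 3.86 higher (SE 1.77) at 6.16, 9.70 and 10.02 against 6.98, 4.40 and 2.92, with overlap. Klf1 (-1.68, SE 1.2), Gadd45a (2.47, SE 1.84), Klf16 (-1.53, SE 1.15) and Atf2 (-1.86, SE 1.4) came next.

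**Figure D4:**
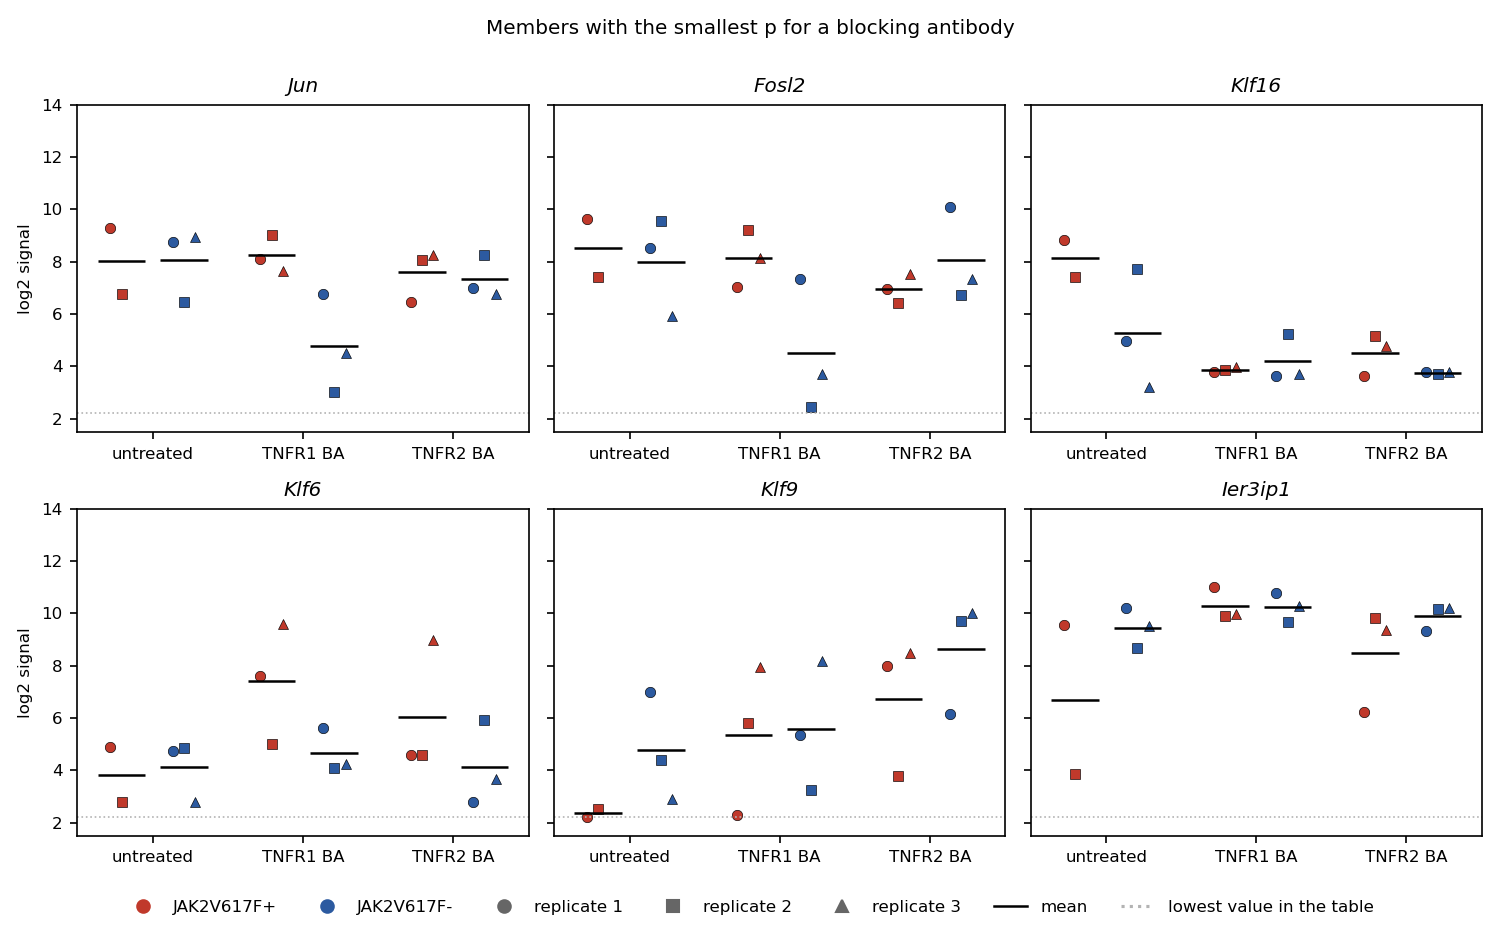
Log2 signal on every array for 6 members with small p in a comparison of a blocking antibody, by treatment and genotype (red, JAK2V617F+; blue, JAK2V617F-), with the group mean as a line and the lowest value in the table dotted. Klf16 is high in both untreated JAK2V617F+ arrays that were fitted and near 4 in most treated arrays. Jun and Fosl2 are low in TNFR1 BA JAK2V617F- arrays of replicates 2 and 3.

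The antibodies were also set against each other. In JAK2V617F+ cells 0 of 39 members passed (0%) and 0 had an unadjusted p under 0.05 (4.37%), the nearest being Gadd45b, at -2.43 for TNFR2 BA minus TNFR1 BA (SE 1.44), then Cebpzos (-1.78, SE 1.07), Ier3ip1 (-1.81, SE 1.15), Fosl1 (2.70, SE 1.85) and Nr4a2 (2.14, SE 1.73). In JAK2V617F- cells 0 of 39 passed (0%) and 3 had an unadjusted p under 0.05 (3.7%), all higher with TNFR2 BA: Fosl2 by 3.55 (SE 1.37), Atf7ip by 2.72 (SE 1.10) and Jun by 2.57 (SE 1.17). Atf7 and Klf9 differed by -2.30 (SE 1.32) and 3.02 (SE 1.77). Every adjusted p in these comparisons was 1, and they share the TNFR1 BA arrays with the comparisons above.

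Whether an antibody acted differently in the genotypes was tested as the difference of the differences. For TNFR1 BA 0 of 39 members passed (0%) and 0 had an unadjusted p under 0.05 (5.22%). Jun came nearest at 3.52 (SE 1.76, 95% interval -0.18 to 7.23, adjusted p = 0.938), followed by Klf16 (-3.15, SE 1.72), Ier3ip1 (2.80, SE 1.72), Fosl2 (3.12, SE 2.06) and Klf6 (3.03, SE 2.2), at adjusted p up to 0.945. For TNFR2 BA 0 of 39 passed (0%) and 0 had an unadjusted p under 0.05 (3.83%), with Atf2 at 2.80 (SE 2.11, adjusted p = 0.997) then Klf16 (-2.08, SE 1.72), Ier5 (1.26, SE 1.10), Klf5 (3.15, SE 3.0) and Klf6 (2.21, SE 2.2) at the same adjusted p. With a median standard error of 1.80, intervals of several log2 units around 0 were not resolved.

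Arrays of the same replicate number were compared last, with the number added to the 6 groups. The study made independent experiments, but neither the labels nor the methods say that a number marks the same experiment in every group. This comparison was chosen after the data were seen. Of the 39 members 2 passed (Egr1 and Atf4), 5.13%, where 1.2% of all probe sets passed, and 13 had an unadjusted p under 0.05, 33.3%, where 12.8% of all did. In 3 members the arrays of 1 number lay all above or all below the others, against 1.39% of probe sets. Replicate 3 was the higher in 26 of 39 members by a median of 0.65, and replicate 2 the higher in 13 of 39, with a median of -0.51, where the medians of all probe sets were -0.05 and 0.04.

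Egr1, the zinc finger factor that serum and cytokines induce fastest, had the smallest p (adjusted p = 0.00143). In replicate 2 it measured 4.95 and 3.62 in untreated, 8.40 and 5.12 in TNFR1 BA and 8.01 and 5.93 in TNFR2 BA cells (JAK2V617F+ before JAK2V617F-). In replicate 1 it ranged from 9.32 to 11.18 and in replicate 3 from 11.17 to 11.82. No array of replicate 2 reached those of the other numbers, and its difference from them was -4.86 (SE 0.60). Egr2 (median 3.71, 3.65 and 8.43 in replicates 1, 2 and 3) had an adjusted p of 0.298.

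Atf4 was narrow but ordered (adjusted p = 0.0267). Replicate 3 measured 12.96 untreated, 13.17 and 12.76 with TNFR1 BA and 12.69 and 12.77 with TNFR2 BA, and the other 12 arrays lay between 11.54 and 12.32. Replicate 3 was thus higher by 0.93 (SE 0.17) without overlap. Gadd45a was likewise highest in replicate 3, from 10.95 to 11.84, against 3.92 to 10.78 elsewhere, by 3.78 (SE 0.88, adjusted p = 0.0395 for replicate 3 against the others), with an adjusted p of 0.0926 over the 3 numbers. For replicate 3 against the others 3 members passed (Egr1, Atf4 and Gadd45a), where 2.02% of all probe sets did. Atf5, a relative of Atf4, Cebpg, a C/EBP that dimerises with ATF4, Klf7, Cebpb and Klf5 were on average higher in replicate 3 without passing. In that order the differences were 2.14, 1.56, 3.59, 1.03 and 3.01. Adjusted p for replicate 3 against the others was 0.0509, 0.135, 0.12, 0.128 and 0.200. Over the 3 numbers it was 0.0938, 0.0999, 0.125, 0.277 and 0.277. For Cebpg the difference of replicate 1 from the others was larger, at -1.92 (SE 0.47). Cebpa, Atf6, Ier3 and Btg1 completed the 13 at adjusted p from 0.262 to 0.378 over the 3 numbers.

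The calls of Egr1 and Atf4 differed in how firmly they held. Egr1 passed in every fit that left out a single array, and lost its call without replicate 2 (adjusted p = 0.293) or replicate 3 (0.256) as a whole. Atf4 lost it with all 18 arrays (adjusted p = 0.222), with variances fitted without a trend (0.344), without any whole replicate number (0.0622 to 0.979) and without any of 12 single arrays (0.0506 to 0.132), namely untreated JAK2V617F- replicates 1, 2 and 3, TNFR1 BA JAK2V617F- replicates 1, 2 and 3, TNFR1 BA JAK2V617F+ replicates 1 and 3, TNFR2 BA JAK2V617F+ replicates 2 and 3 and TNFR2 BA JAK2V617F- replicates 1 and 3. The left-out array of replicate 3 had Atf4 at 11.63 and Gadd45a at 2.84, unlike the rest of its number.

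**Figure D5:**
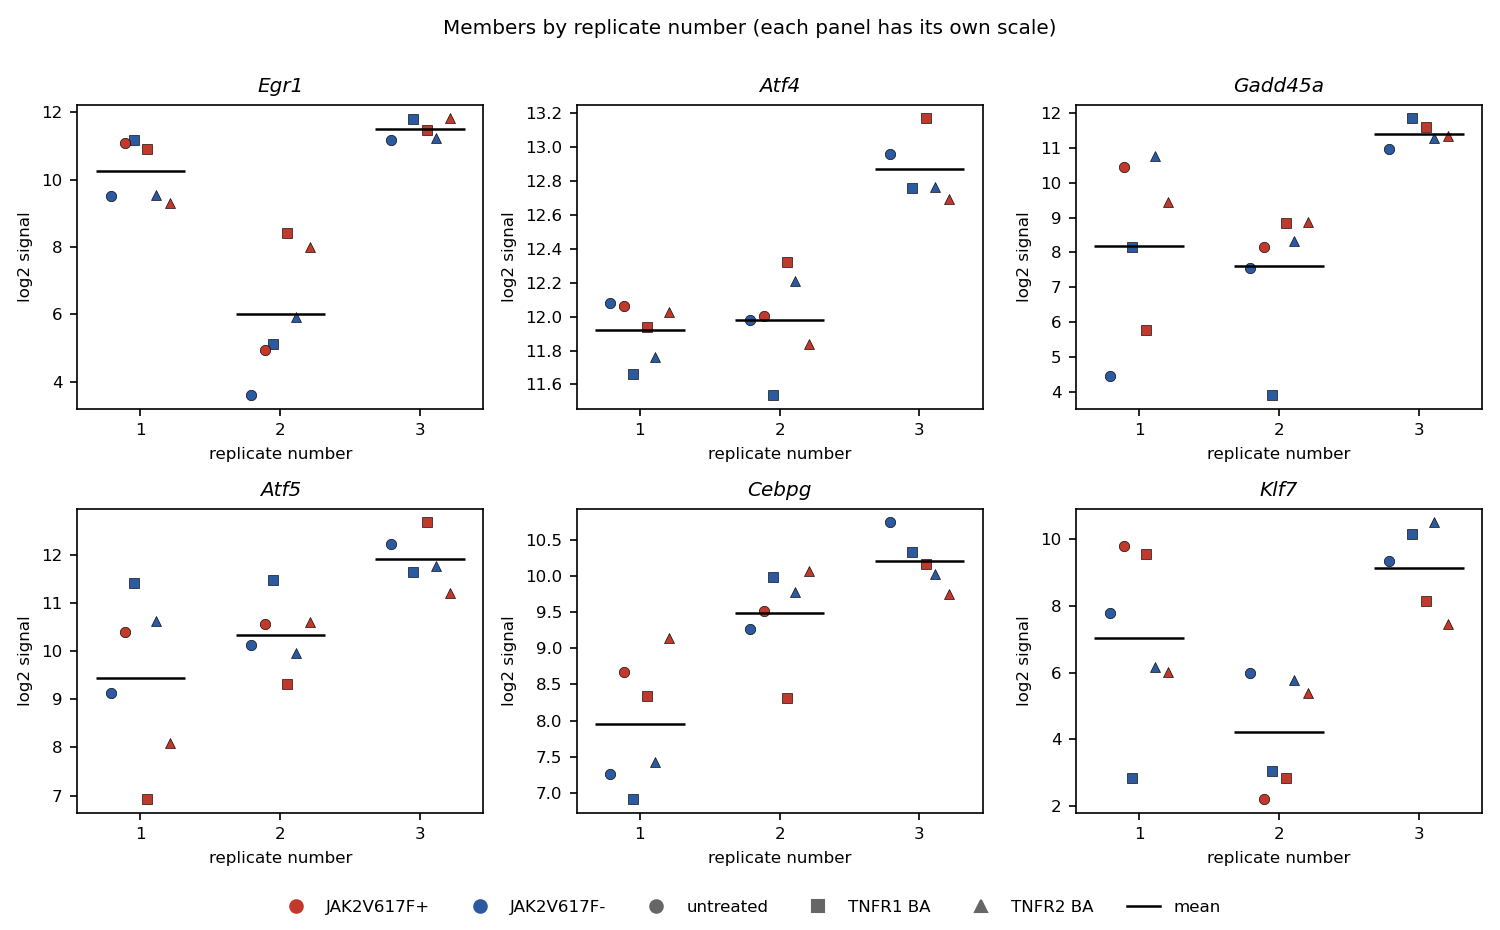
Log2 signal by replicate number for the 6 members with the smallest p for that term, each panel on its own scale. JAK2V617F+ is red and JAK2V617F- blue, the symbol gives the treatment, and each line is the mean of the arrays of that replicate number. Egr1 is lowest in replicate 2, between 3.62 and 8.40, and Atf4 and Gadd45a are highest in replicate 3 with no overlap.

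Stress response genes were compared in the same way. Of 24 measured integrated stress and unfolded protein response genes 8 changed with the replicate number, where 1.2% of all probe sets did, 13 had an unadjusted p under 0.05, where 12.8% of all did, and 21 were higher in replicate 3, with a median difference of 1.03 over the 24. Slc7a11, the cystine transporter, ranged from 6.11 to 9.89 in replicate 3 and did not exceed 4.86 elsewhere, a difference of 5.85 (SE 0.68). Trib3, an ATF4 target that feeds back on it, rose by 6.68 (SE 1.05), Nupr1 by 5.71, Chac1 by 5.37, Ddit3, which encodes CHOP, by 4.0, Asns, asparagine synthetase, by 1.80, Ddit4 by 1.60 and Slc3a2 by 1.12, with adjusted p over the 3 numbers from 0.000292 to 0.0269. Ddit4 separated replicate 2, at 10.01 to 10.74, from the 12.01 to 13.44 of the other arrays, unlike Atf4, whose replicate 1 and 2 means were 11.92 and 11.98. Leaving out untreated JAK2V617F- replicate 3 brought the 8 calls to 2, TNFR2 BA JAK2V617F- replicate 3 to 3, TNFR1 BA JAK2V617F+ or JAK2V617F- replicate 3 to 4 each, and untreated JAK2V617F- replicate 2 to 5, and without all of replicate 2 or 3 it was 0 or 1.

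Granulocyte genes under C/EBP control moved with the replicate number too, 7 of 17 by the adjusted p, where 1.2% of all probe sets passed. Camp, the cathelicidin precursor, measured 3.59 to 10.36 in replicate 2, 11.38 to 13.53 in replicate 1 and 11.94 to 13.32 in replicate 3, and Ltf, lactoferrin, 3.38 to 8.84, 9.63 to 12.06 and 10.36 to 11.53. Ngp, Lyz1, Lyz2, S100a8 and S100a9 were the others. The mean signal of the 17 genes ranged from 9.62 to 10.47 in replicate 2, 10.11 to 11.51 in replicate 1 and 11.30 to 11.74 in replicate 3, and all 17 averaged 4 or more. The pre-B gene Vpreb1 was lower in replicate 3 (adjusted p = 0.0248), and 0 of 26 other immediate early, 18 leucine zipper, 18 kinase, 8 p53 target, 12 erythroid, 11 mast cell, 8 progenitor, 5 megakaryocyte, 4 T and NK cell or 8 monocyte, macrophage and dendritic cell genes passed, with 6, 4, 0, 4, 2, 3, 4, 1, 0 and 4 at an unadjusted p under 0.05, to be read against the 12.8% of all probe sets. The part of cell composition in the differences of Egr1, Atf4 and the C/EBP genes between replicate numbers was not tested.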

How the data were processed

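Expression was measured on Affymetrix mouse expression arrays. The authors deposited log2 signals of 10335 probe sets on 18 arrays, made with Affymetrix Expression Console per the labels. How they were normalized is not stated in the labels or methods, and there is no depth or detection call. The table may be a filtered part of the array, since it holds 4 of 7 listed AP-1 and 10 of 17 listed KLF genes, and every background share and adjusted p refers to its probe sets. Untreated JAK2V617F+ replicate 3 was left out, as the authors did. Of the probe sets 9651 carried 1 gene symbol, 27 several and 657 none. The members and gene lists were chosen with earlier results of these data known.

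The 6 groups were fitted over all probe sets of 17 arrays in limma (version 3.58.1, R 4.3.3) with a mean per group, a variance trend and Benjamini-Hochberg adjustment, at an adjusted p of 0.05. Every member was named, with the values by array for those with an adjusted p under 0.05 or an unadjusted p under 0.05 between the genotypes, the 5 of smallest p in the other comparisons, and from each pathway list the genes that passed or else the 3 of smallest p. The script was tested on simulated data. Deviations of arrays with the same replicate number correlated by 0.01, 0.07 and 0.14 for numbers 1, 2 and 3, and those of different numbers by -0.03, a weak tie that differed between the numbers. The replicate block was therefore an alternative, given beside Klf1, whose call it changes, and the number was also tested as a term of its own. Other alternatives were all 18 arrays, quantile normalization, variances without a trend, array weights, removal of dim probe sets, fits of the compared groups alone, the mean of a gene's probe sets, each array or number left out, and the methods' paired t-test. The mean of a gene's probe sets could not change the signals of the members, which had 1 probe set each. Tables were handled in pandas 2.3.3 (Python 3.11.15).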

Additional observations from a re-analysis of the deposited data

Results flagged for a closer look

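Within a genotype, 9 of 78 sets of arrays held 1 array far from the rest. The nominal rate of about 1 in 20 does not apply, since the sets pool treatments and replicate numbers and some lie near the lowest value. Among JAK2V617F- arrays these were Fos at 2.80, Klf10 at 7.62 and Klf16 at 7.71, all in untreated replicate 2, Fosl1 at 7.56 in TNFR1 BA replicate 1 and Btg2 at 8.58 in TNFR1 BA replicate 3. Among JAK2V617F+ arrays they were Nr4a3 at 8.94 and Gadd45gip1 at 7.30, both in TNFR2 BA replicate 2, Cebpd at 5.18 in untreated replicate 2, and Klf4 at 2.25 in TNFR2 BA replicate 3. Fos at 2.80 and Klf4 at 2.25 stood apart only because the others lay at or near the lowest value in the table.

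The array left out, untreated JAK2V617F+ replicate 3, lay above every other array in 6 members: Jun at 10.97, Egr1 at 12.28, Ier3 at 12.76, Klf13 at 11.74, Atf2 at 10.85 and Cebpg at 11.62. It lay below every other array in 3 members. The share of all probe sets in which it did either was not counted. Its signals were distributed unlike the others, with a median of 6.05 against 7.41 to 7.75 and 36.5% of probe sets under 4. These counts describe that array and are no trait of the members.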

How the results depend on the processing

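The count of members passing between the genotypes over the 3 treatments was 1 (Klf1) with all 18 arrays and with the replicate block, and 0 to 1 when an array or a number was left out. With the block no call changed in the other comparisons. Leaving out gave 0 to 1 members between untreated genotypes and 0 to 1 for TNFR1 BA in JAK2V617F+ cells (Ier3ip1 in both), where the members' median ranged from 0.0216 to 1.27. For the replicate number 1 member passed with all 18 arrays and 1 with variances without a trend, and 0 to 2 when leaving out, while 0 to 9 integrated stress genes passed. Some differences also turned direction when leaving out. Without untreated JAK2V617F+ replicate 2 Ier3ip1 was 0.11 between untreated genotypes (range -5.61 to 0.11), -1.09 for TNFR2 BA in JAK2V617F+ cells (-1.76, without replicate 2, to 5.75) and -0.0554 for the TNFR1 BA change between the genotypes (-0.0554 to 5.66), and Klf5 was -0.14 for the TNFR2 BA change between the genotypes (-0.14 to 6.43). Without replicate 2 Fosl2 was -0.34 for the TNFR1 BA change between the genotypes (-0.34 to 5.93) and Ier5 -0.0232 for the TNFR2 BA change between the genotypes (-0.0232 to 3.03). The cause was not tested. By the methods' paired t-test over 8 genotype pairs 8 members had p under 0.05, where 970 of the 10335 probe sets did. After Benjamini-Hochberg 0 members passed, where 11 probe sets did. The 8 members were Btg1, Gadd45b, Ier2, Ier3, Klf1, Klf3, Klf4 and Nr4a3, with Ier2 in place of the Fos of the limma fit. The 8 pairs came from 3 replicate numbers. With 2 or 3 arrays a group and a lowest value shared by 8 members, small differences were not resolved.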
